A study of Mus musculus with 25 samples.

Results

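The comparison is of wild-type (WT) mouse hearts under Ang/PE, a pair of neurohormonal agonists, with WT hearts under saline, the vehicle. Hearts were chosen by their titles and treatment labels: 3 WT Ang/PE hearts and 6 WT saline hearts, 9 of the 25 hearts of the series. The series set mice labelled MCT1-KO, after the lactate transporter MCT1 (gene Slc16a1), beside WT controls, to study lactate metabolism in cardiac hypertrophy. The remaining 16 hearts are 4 WT hearts without a pump, given here for their levels, and 12 MCT1-KO hearts, which enter through the shared estimates of the spread and of any covariate. Both compared groups carry the genotype label WT, with no allele or Cre driver named. Strain, sex, age, dose, infusion time and time of day are not given in the labels used here. Each heart gave 1 library of total RNA with ribosomal RNA removed. No label says whether hearts of a group came from separate experiments, so p-values measure the spread between these libraries.

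Ang/PE in heart studies usually stands for angiotensin II with phenylephrine. Both act on receptors coupled to Gq (Agtr1a for angiotensin II, Adra1a and Adra1b for phenylephrine), which raise calcium through phospholipase C and engage calcineurin, CaMKII, MEF2 and GATA4 in muscle cells. Sustained signalling of this kind is known to enlarge cardiomyocytes, to raise natriuretic peptides and fetal sarcomere genes, to shift fuel use and to activate fibroblasts that lay down matrix. The results follow that order after the genes that differed most.

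Heart muscle genes were abundant in all 9 hearts (Myh6, 21360 to 34170 counts per 1000000 counts of the library, CPM), as the tissue label says. Of the 9 listed ventricular markers, Tnnt2, Ryr2 and Irx4 were lower under Ang/PE without overlap of the groups, and 0 were higher. These counts stand beside 7.16% lower and 6.39% higher of all tested genes. Irx4 read 15.7 to 24.7 CPM under Ang/PE and 29.8 to 36.6 CPM under saline. Library totals, in units of 1000000 counts, were 15.2 ± 1.26 (SD, n = 3) under Ang/PE and 18.1 ± 0.804 (SD, n = 6) under saline, a difference of -2.90 (exact permutation test, two-sided, p = 0.0119, the smallest that 84 arrangements allow). Xist, the X-inactivation RNA of female cells, read 596 to 759 CPM in all 3 Ang/PE hearts, 585 CPM in saline replicate 6 and at most 0.454 CPM in the other 5 saline hearts, in which the Y-linked Kdm5d read 29.5 to 32.6 CPM. Among the 9 compared hearts, treatment and sex can thus be told apart only through that 1 saline heart. Of the 4 hearts without a pump, replicates 2 and 3 read 689 and 657 CPM of Xist and the other 2 at most 0.536 CPM, and these 4 are given by Xist below. The MCT1-KO hearts also held both kinds, so the 25-heart fit with Xist as a covariate rests on more than that saline heart. Atrial muscle RNA also differed between the hearts: Myl7 read 50.1 to 379 CPM in saline replicates 3 to 6, 4.58 CPM in replicate 2, 0.465 CPM in replicate 1 and at most 0.214 CPM in the Ang/PE hearts. The 9 tested atrial markers summed to 109 to 117 CPM in the Ang/PE hearts and 92.7 to 1683 CPM in the saline hearts, and Bmp10 was at 0 in all 3 Ang/PE hearts. The adipocyte hormone Adipoq read 4.80 CPM in saline replicate 4, 1.76 CPM in replicate 6 and at most 0.511 CPM in the others. The 9 tested adipocyte markers summed to 406 to 470.2 CPM under Ang/PE and 324 to 404 CPM under saline, a sum made up mostly of the lipid droplet gene Plin4, which muscle expresses as well (393 to 457 CPM under Ang/PE, 306 to 377 CPM under saline, called higher in the fit of 9 hearts below). Fits with Xist, or with atrial and adipocyte scores, as covariates are given below for the count of called genes and beside the genes the results turn on. Ang/PE replicate 3 stood apart from the other compared hearts. Its root mean square log2 distance was 0.403 to 0.411 to the other WT Ang/PE hearts and 0.509 to 0.562 to the saline hearts. Ang/PE replicates 1 and 2 were 0.227 from each other. Distances to hearts outside the 9 were not taken.

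**Figure D1:**
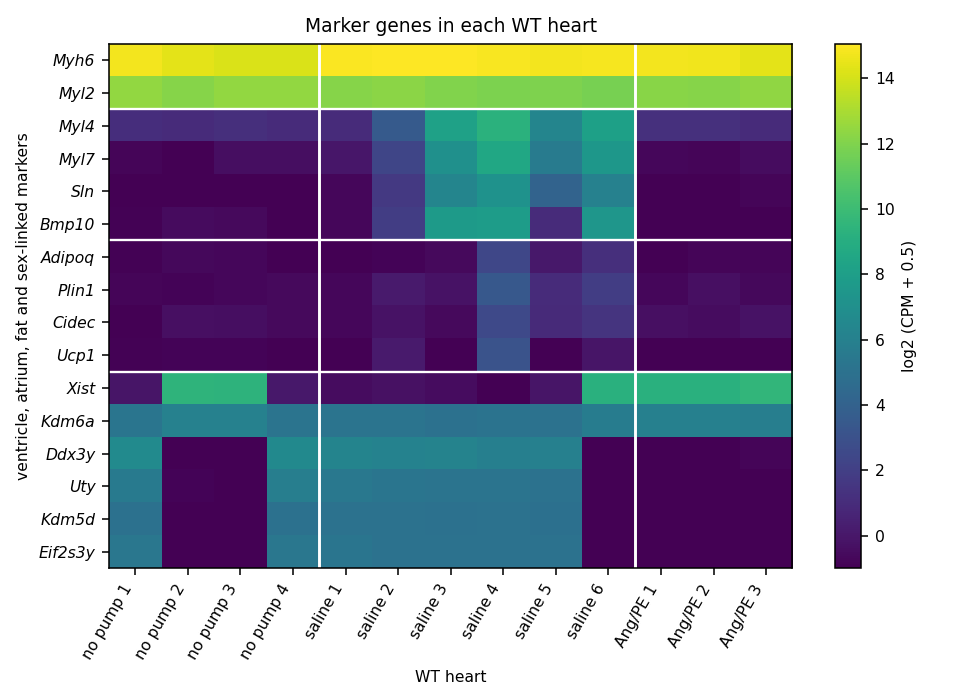
Marker levels in the 13 WT hearts as log2 of CPM plus 0.5 (colour); rows are ventricular, atrial, fat and sex-linked genes, columns are hearts. Atrial genes are bright in saline replicates 3 to 6, and Xist is bright in all 3 Ang/PE hearts, in saline replicate 6 and in 2 of the 4 hearts without a pump.

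Across the genome, 3 of 17682 tested genes passed an adjusted p of 0.05 (0.017%) in edgeR's quasi-likelihood fit of all 25 hearts: Rnf144b and Rnf2 rose (0.0113%) and Prr29 fell (0.00566%). At an unadjusted p under 0.05 there were 1675 genes higher (9.47%) and 1694 lower (9.58%). The fit of the 9 compared hearts alone called far more, 531 genes higher (3.19%) and 414 lower (2.49%) of 16621, with the spread estimated from these 9 hearts. Without Ang/PE replicate 3 that fit called 265, and 242 of the 945 genes stayed called. With Xist as a covariate 67 were called in the 9 hearts. With the 25 hearts, 0 genes were called by edgeR with Xist or with atrial and adipocyte marker scores as covariates (2339 and 1203 at an unadjusted p under 0.05). Below, a gene "called in the 9 hearts" passed in the 9-heart fit, and log2 fold changes (Ang/PE over saline) are from the 25-heart fit unless stated.

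Rnf144b differed most firmly from saline. It encodes a RING-between-RING ubiquitin ligase that is a known p53 target (ENSMUSG00000038068). Its level was 70.1, 54.2 and 62.2 CPM in the Ang/PE hearts and 27.995 to 31.8 CPM (median 30.8) in the saline hearts, that is 62.2 ± 7.93 CPM (SD, n = 3) against 30.6 ± 1.34 CPM (SD, n = 6). Every Ang/PE heart was far above every saline heart, and the hearts without a pump, at 39.03 to 54.8 CPM, were above the saline hearts as well, with 54.8 and 52.4 CPM in the 2 with Xist and 39.03 and 45.7 CPM in the 2 without. The rise was 2.04-fold (log2 1.03, SE 0.14, edgeR adjusted p = 0.0019). Saline replicate 6, the saline heart with Xist, read 30.7 CPM, in the middle of its group. With Xist as a covariate the log2 difference was 1.02 in the 9 hearts (edgeR adjusted p = 0.0113) and 0.93 in the 25 (adjusted p = 0.111). With the atrial and adipocyte scores as covariates it was 0.87 (adjusted p = 0.19), and against saline replicates 1 and 2 alone, which held little atrial RNA, 0.98 (adjusted p = 0.488).

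Rnf2 (Ring1b, ENSMUSG00000026484) is the catalytic subunit of polycomb repressive complex 1, which places ubiquitin on histone H2A. It read 19.03, 20.5 and 30.3 CPM in the Ang/PE hearts and 12.7 to 16.7 CPM (median 13.97) in the saline hearts. Replicate 3 was the highest of the 9, and replicates 1 and 2 were closer to the top of the saline range. The hearts without a pump read 19.3 to 23.6 CPM, all above the saline hearts, with 23.6 and 20.6 CPM in the 2 with Xist and 20.1 and 19.3 CPM in the 2 without. Its rise of 1.62-fold (log2 0.69, SE 0.12, edgeR adjusted p = 0.0398) came to log2 0.47 without replicate 3 (adjusted p = 0.512). With Xist as a covariate it was 0.87 in the 9 hearts (edgeR adjusted p = 0.156) and 0.74 in the 25 (adjusted p = 0.218), and with the atrial and adipocyte scores 0.50 (adjusted p = 0.707).

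Prr29 (ENSMUSG00000009210), a proline-rich protein gene, was the 1 gene that fell. It read 1.79, 1.75 and 1.14 CPM in the Ang/PE hearts and 4.26 to 6.86 CPM (median 4.61) in the saline hearts, and in the hearts without a pump 2.39 and 3.596 CPM in the 2 with Xist and 2.71 and 4.07 CPM in the 2 without. The groups were apart, the highest Ang/PE heart lying below the lowest saline heart, and saline replicate 6 was the highest of all at 6.86 CPM. The log2 fold change was -1.66 (SE 0.29, edgeR adjusted p = 0.0398). Leaving out replicate 3 gave -1.47 (adjusted p = 0.512). With Xist as a covariate it was -2.11 in the 9 hearts (edgeR adjusted p = 0.00601) and -1.80 in the 25 (adjusted p = 0.111), and with the atrial and adipocyte scores -1.35 (adjusted p = 0.707).

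The sequences just before the starts of these 3 called genes are shown because their number of CG dinucleotides, in capitals, differs. They are the 250 bases before the RefSeq start, 5′ to 3′ on the gene's strand, on GRCm38.p6. The counts were made on GRCm39, so these windows were matched by symbol alone.
Rnf144b (chr13:47122470-47122719, plus strand; first of 2 listed starts): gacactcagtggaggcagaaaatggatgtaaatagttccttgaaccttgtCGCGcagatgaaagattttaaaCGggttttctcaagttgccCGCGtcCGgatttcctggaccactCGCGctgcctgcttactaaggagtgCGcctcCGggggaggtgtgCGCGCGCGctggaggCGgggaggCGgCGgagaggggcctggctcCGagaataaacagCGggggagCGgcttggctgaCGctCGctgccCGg
Rnf2 (chr1:151500992-151501241, minus strand): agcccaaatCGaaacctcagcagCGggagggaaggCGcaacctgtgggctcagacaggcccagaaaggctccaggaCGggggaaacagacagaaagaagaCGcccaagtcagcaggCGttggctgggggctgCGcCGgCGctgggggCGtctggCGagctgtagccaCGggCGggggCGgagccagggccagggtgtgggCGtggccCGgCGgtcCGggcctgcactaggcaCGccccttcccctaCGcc
Prr29 (chr11:106374576-106374825, plus strand): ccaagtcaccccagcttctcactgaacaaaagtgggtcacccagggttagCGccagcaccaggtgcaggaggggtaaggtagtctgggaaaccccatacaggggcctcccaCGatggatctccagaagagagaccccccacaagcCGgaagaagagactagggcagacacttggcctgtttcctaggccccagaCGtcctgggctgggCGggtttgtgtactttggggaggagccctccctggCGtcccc
Rnf144b held 23 CG and Rnf2 20, while Prr29 held 6, which is the median of all 32851 windows. Their GC contents were 61.2%, 70.4% and 61.2%, above the median window of 52.4%.

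**Figure D2:**
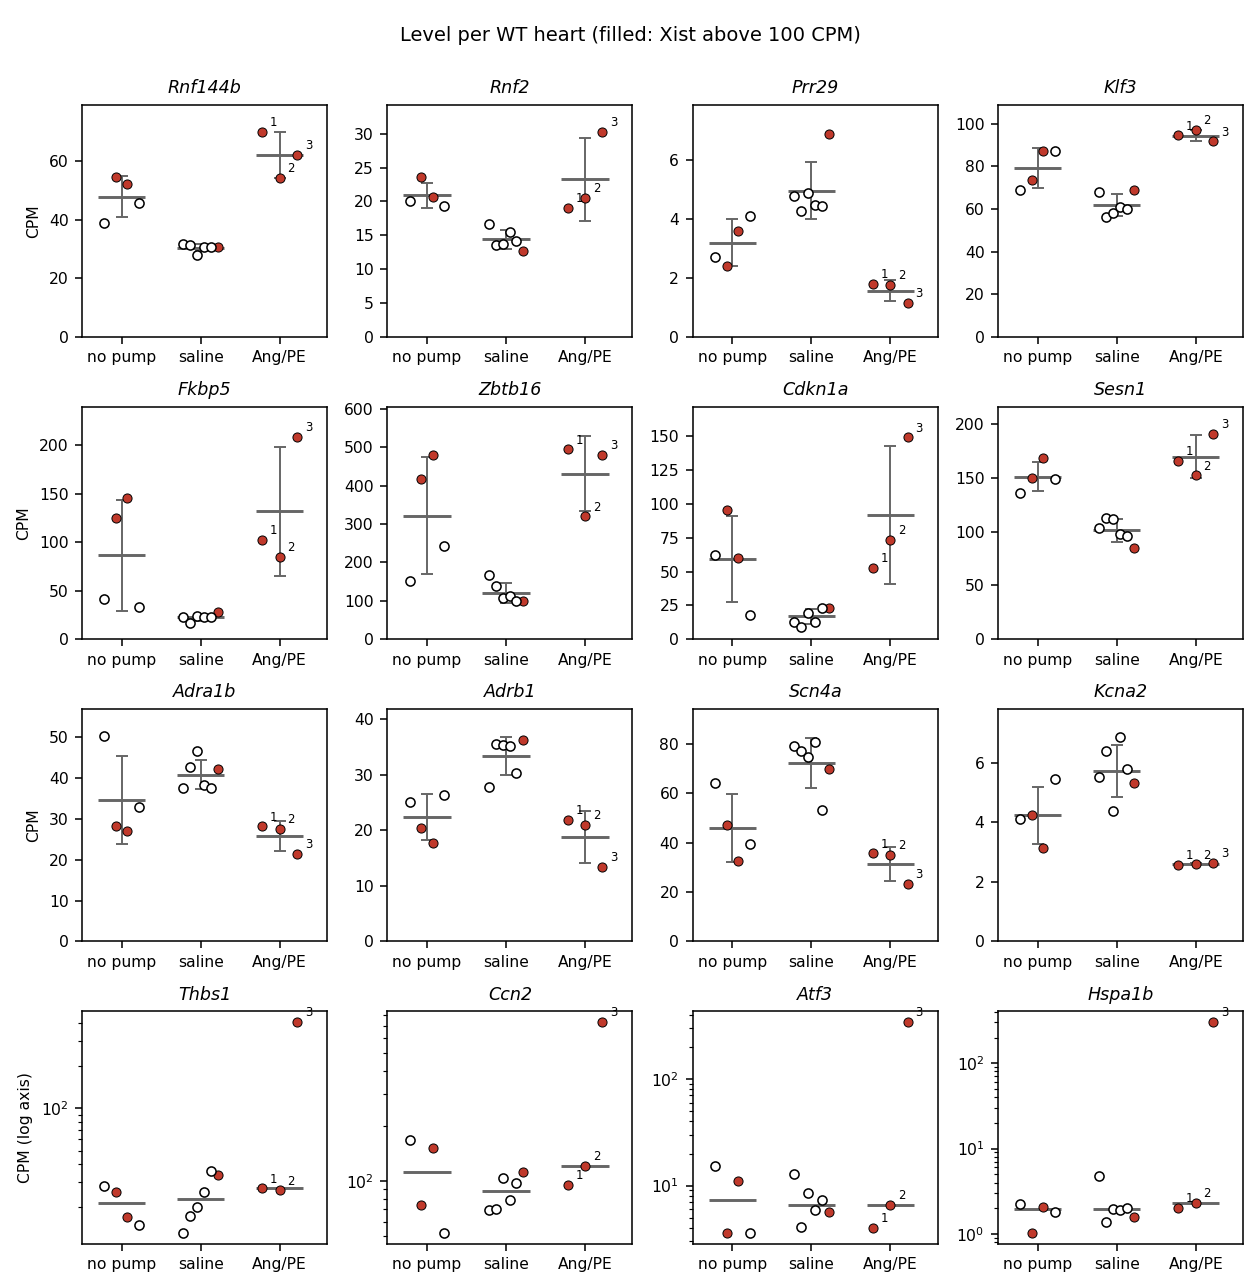
CPM of 16 genes in each WT heart by group (no pump 4, saline 6, Ang/PE 3; Ang/PE points numbered by replicate), with mean and SD in the upper rows and the median on a log axis in the bottom row; filled points are hearts with Xist above 100 CPM. In the upper 12 panels all 3 Ang/PE hearts lie outside the saline range, for some of these genes by the choice of genes. In the bottom row replicate 3 lies far above all other WT hearts.

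The groups did not overlap in CPM for 1130 genes higher (6.39%) and 1266 lower (7.16%) under Ang/PE. Replicate 3 was the outermost of the Ang/PE hearts in 820 of the 1130 (72.6%) and 843 of the 1266 (66.6%). Of the 12 such genes of smallest p in each direction, 3 are those above, and the other 21 had edgeR adjusted p from 0.0503 to 0.0596 in the 25 hearts. All 24 were called in the 9 hearts, a count that the choice by small p largely fixes.

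Klf3, a Kruppel-like transcriptional repressor, was even across the Ang/PE hearts, with 94.5, 96.9 and 91.6 CPM in the Ang/PE hearts and 56.1 to 68.9 CPM (median 60.4) in the saline hearts. Its log2 fold change was 0.61, and 0.64 without replicate 3. Ston1, an adaptor of endocytosis, was as even at 28.03, 27.3 and 28.9 CPM in the Ang/PE hearts and 14.8 to 20.3 CPM (median 17.4) in the saline hearts. Shoc2, a scaffold that activates RAF kinases downstream of RAS, had the smallest difference of these genes, log2 0.35, but read 39.5, 39.8 and 41.5 CPM in the Ang/PE hearts against a saline maximum of 34.9 CPM. Rasgef1b, an exchange factor of the RAS family, read 26.1, 20.6 and 32.5 CPM in the Ang/PE hearts and 9.66 to 16.5 CPM (median 13.8) in the saline hearts. Plekhg1, a guanine nucleotide exchange factor, read 41.4, 42.1 and 53.5 CPM in the Ang/PE hearts and 24.7 to 31.6 CPM (median 28.7) in the saline hearts. That the 3 Ang/PE hearts were above all 6 saline hearts in all 5 follows from the choice of genes. Without a pump Klf3 read 68.9 to 87.2 CPM, Ston1 20.1 to 32.9 CPM and Shoc2 37.5 to 41.2 CPM. Rasgef1b read 14.4 to 20.1 CPM and Plekhg1 32.2 to 40.8 CPM in the same 4 hearts.

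Other genes of this group were led by replicate 3. Cdkn1a, which encodes the cell-cycle inhibitor p21, had the largest fold of the 12: it read 52.8, 73.3 and 149 CPM in the Ang/PE hearts and 9.28 to 23.3 CPM (median 16.1) in the saline hearts, a log2 difference of 2.45 (SE 0.49, edgeR adjusted p = 0.0503). The hearts without a pump read 95.8 and 60.1 CPM in the 2 with Xist and 62.4 and 18.2 CPM in the 2 without. Ms4a4a, a membrane protein of macrophages, read 3.3997, 5.17 and 7.43 CPM in the Ang/PE hearts and 1.07 to 1.96 CPM (median 1.601) in the saline hearts. Without a pump it read 3.07 to 7.50 CPM. The zinc finger gene Zfp948 read 10.9, 10.3 and 25.2 CPM against at most 6.52 CPM under saline. Lancl3 read 8.41, 7.198 and 17.5 CPM against at most 4.12 CPM. Klhl2, a substrate adaptor of cullin-3 ubiquitin ligases, read 21.2, 25.02 and 34.7 CPM against at most 15.3 CPM.

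Among the lower genes, Sema6a, a transmembrane semaphorin, read 24.9, 23.8 and 20.2 CPM in the Ang/PE hearts and 31.9 to 49.97 CPM (median 44.5) in the saline hearts, with a log2 difference of -0.93 (edgeR adjusted p = 0.0503). Its lowest saline heart was replicate 6, the one with Xist, and the hearts without a pump read 27.8 and 20.8 CPM in the 2 with Xist and 27.4 and 32.1 CPM in the 2 without. Akap5, which anchors protein kinase A and calcineurin at the membrane, read 2.98, 3.84 and 1.43 CPM in the Ang/PE hearts and 4.31 to 12.4 CPM (median 9.51) in the saline hearts. Here too saline replicate 6 was the lowest of its group, 4.31 CPM, next to the Ang/PE values, and without a pump Akap5 read 3.02 and 2.397 CPM in the 2 with Xist and 4.74 and 5.36 CPM in the 2 without. Fkbp10, a chaperone of collagen folding, read 13.7, 16.7 and 15.2 CPM in the Ang/PE hearts and 20.4 to 29.99 CPM (median 22.9) in the saline hearts. Gdf11, a ligand of the TGF-beta family, read 1.61, 2.17 and 1.57 CPM in the Ang/PE hearts and 2.76 to 3.52 CPM (median 3.24) in the saline hearts.

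Ighm, the immunoglobulin mu heavy chain of B cells, read 4.18, 3.42 and 3.22 CPM in the Ang/PE hearts and 5.75 to 9.08 CPM (median 7.58) in the saline hearts. Asap3, an ARF GTPase-activating protein, read 15.8, 14.96 and 7.86 CPM in the Ang/PE hearts and 20.7 to 28.8 CPM (median 24.8) in the saline hearts. Without a pump it read 11.3 to 17.4 CPM. The remaining 6 (Gypc, Dnaaf3, Tysnd1, Nudt16l1, Mageh1 and Prr29) had log2 fold changes from -1.66 to -0.43. Of them Tysnd1, a peroxisomal protease, read 20.5, 17.6 and 15.9 CPM against a saline minimum of 21.6 CPM, and Dnaaf3, a dynein assembly factor, 7.75, 6.71 and 4.14 CPM against 9.75 CPM.

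**Figure D3:**
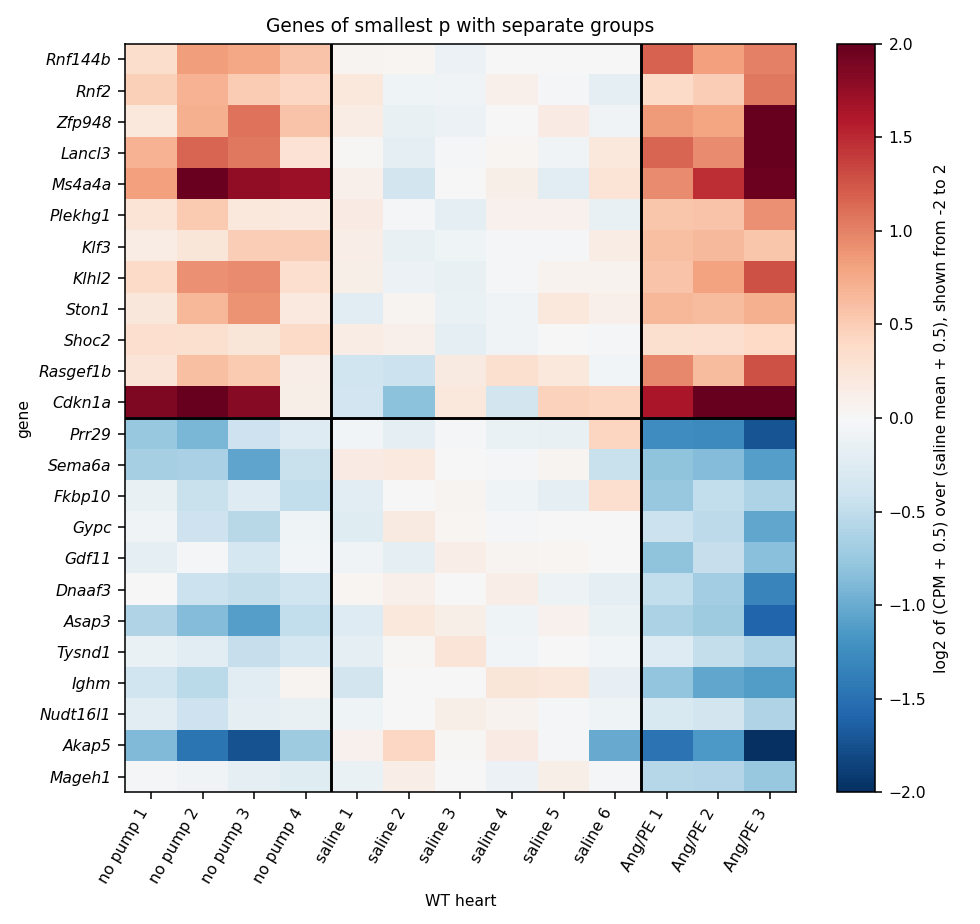
Log2 of CPM plus 0.5 over the saline mean plus 0.5 in the 13 WT hearts (columns) for the 12 higher and 12 lower genes of smallest p whose groups did not overlap (rows; colour from -2 to 2, values beyond at the end colours). By the choice of genes the Ang/PE columns are red above and blue below. The columns of hearts without a pump, which the choice did not use, hold values from -1.73 to 2.48. For each gene drawn, the mean CPM without a pump lay on the Ang/PE side of the saline mean. The choice did use the saline levels, so this side is favoured.

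The receptors that Ang/PE acts on were lower or within the saline range. Adra1b, the alpha-1B adrenergic receptor, read 28.2, 27.5 and 21.5 CPM in the Ang/PE hearts and 37.4 to 46.6 CPM (median 40.3) in the saline hearts, all 3 below all 6, and was called in the 9 hearts (log2 -0.66, edgeR adjusted p = 0.00479) but not in the 25 (adjusted p = 0.0843). Agtr1a, the type 1 angiotensin receptor, read 30.2, 29.2 and 24.5 CPM in the Ang/PE hearts and 30.5 to 42.3 CPM (median 32.8) in the saline hearts, below the saline hearts by a narrow margin and with adjusted p = 0.483. Adra1a, the alpha-1A receptor, overlapped, at 62.98, 51.6 and 42.3 CPM in the Ang/PE hearts and 33.5 to 67.8 CPM (median 56.9) in the saline hearts. Adrb1, the main beta receptor of cardiomyocytes, was lower in every Ang/PE heart, at 21.9, 21.04 and 13.4 CPM in the Ang/PE hearts and 27.8 to 36.2 CPM (median 35.2) in the saline hearts (log2 -0.83, adjusted p = 0.0711 in the 25 hearts and 0.0114 in the 9). Saline replicate 6 read 36.2 CPM of Adrb1, the highest of its group, while the hearts without a pump read 20.4 and 17.7 CPM in the 2 with Xist and 25.2 and 26.4 CPM in the 2 without.

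Of 37 tested genes of the receptors and Gq signalling, 3 were called higher and 3 lower in the 9 hearts, beside 3.19% and 2.49% of all genes. The median log2 fold change was -0.07, beside -0.01 over all tested genes. Plcb4, a phospholipase C that Gq activates, read 106, 91.8 and 128 CPM in the Ang/PE hearts and 75.2 to 91.9 CPM (median 80.5) in the saline hearts. Trpc6, a calcium channel that diacylglycerol opens, was rare, at 0.775, 0.839 and 0.929 CPM in the Ang/PE hearts and 0.174 to 0.454 CPM (median 0.382) in the saline hearts. Adra2b was higher, at 2.803, 2.38 and 2.001 CPM against at most 1.62 CPM. Agtrap, a protein that binds the angiotensin receptor, was lower, at 36.2, 39.1 and 33.9 CPM against at least 40.4 CPM. Rgs2, which shuts off Gq and is a known target of this signalling, overlapped fully, at 31.9, 35.9 and 36.2 CPM in the Ang/PE hearts and 27.8 to 49.3 CPM (median 32.7) in the saline hearts.

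Downstream, in the list of calcineurin, CaMKII and MEF2 signalling, 0 of 32 genes were called higher and 3 lower in the 9 hearts, beside 3.19% and 2.49% of all genes (2 and 6 at an unadjusted p under 0.05 with edgeR in the 25, beside 9.47% and 9.58%). Gata4, the cardiac transcription factor, read 107, 116 and 79.3 CPM in the Ang/PE hearts and 143 to 172 CPM (median 156) in the saline hearts, log2 -0.65 (edgeR adjusted p = 0.0843 in the 25 hearts and 0.00679 in the 9). Mef2d, a member of the MEF2 factors, read 189, 181 and 152 CPM in the Ang/PE hearts and 216 to 244 CPM (median 232) in the saline hearts. Camk2a, a CaMKII subunit, read 53.6, 53.8 and 44.1 CPM in the Ang/PE hearts and 59.8 to 73.2 CPM (median 67.4) in the saline hearts. All 3 were lower in each Ang/PE heart than in each saline heart. The means without a pump were 107 CPM for Gata4, 172 CPM for Mef2d and 47.3 CPM for Camk2a. These lay nearer to the Ang/PE means (101, 174 and 50.5 CPM) than to the saline means (158, 231 and 66.8 CPM). Rcan1, a calcineurin target often read as its activity, was different: it read 76.9, 90.1 and 464 CPM in the Ang/PE hearts and 55.05 to 91.7 CPM (median 79.8) in the saline hearts. Replicates 1 and 2 lay within the saline range and replicate 3 far above it, so that the log2 difference of 1.48 became 0.16 without replicate 3.

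Several genes of the fetal programme were high in 1 of the 3 Ang/PE hearts. Nppb, the B-type natriuretic peptide, read 159, 229 and 855 CPM in the Ang/PE hearts and 99.1 to 166 CPM (median 153) in the saline hearts. Replicate 1 was inside the saline range, replicate 2 just above it and replicate 3 far above, and hearts without a pump read 198 to 541 CPM. The log2 difference was 1.58 (SE 0.50, edgeR adjusted p = 0.112), and 0.50 without replicate 3. Myh7, the slow fetal myosin heavy chain, read 643, 356 and 1458 CPM in the Ang/PE hearts and 268 to 613 CPM (median 385) in the saline hearts (adjusted p = 0.308). Acta1, skeletal alpha-actin, overlapped at 125, 272 and 301 CPM in the Ang/PE hearts and 113 to 459 CPM (median 206) in the saline hearts, with log2 -0.06. Ankrd1, a stretch-responsive repeat protein, read 620.1, 609 and 2170 CPM in the Ang/PE hearts and 528 to 1159 CPM (median 962) in the saline hearts, replicates 1 and 2 in the lower part of the saline range and replicate 3 above all of it.

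Xirp2, an actin-binding protein of the intercalated disc, read 1394, 1325 and 4986 CPM in the Ang/PE hearts and 1046 to 1446 CPM (median 1173) in the saline hearts. Enah, an actin regulator of the same structure, read 225, 224 and 826 CPM in the Ang/PE hearts and 186 to 227 CPM (median 205) in the saline hearts. In both, replicates 1 and 2 were within or next to the saline range and replicate 3 several times above it. Of the 30 genes of this list 0 were called in the 9 hearts, 7 were higher at an unadjusted p under 0.05 in the 25 (beside 9.47% of all genes), and replicate 3 was the highest of the 9 hearts in 16, beside 23.4% of all tested genes. The list median was 0.19, and -0.05 without replicate 3.

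Nppa, the atrial natriuretic peptide, followed the atrial markers. It read 157, 152 and 315 CPM in the Ang/PE hearts and 44.5 to 1459 CPM (median 714) in the saline hearts, and the 4 saline hearts with Myl7 above 10 CPM were the same as those with the highest Nppa. The log2 difference was -1.68 (SE 1.23, adjusted p = 0.473) against all 6 saline hearts and 1.46 (adjusted p = 0.756) against saline replicates 1 and 2, a reversed sign. In bulk RNA, fewer cells of a type and less RNA per cell cannot be told apart.

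Adult sarcomere genes gave calls in both directions. Myh6, the adult fast myosin heavy chain, read 28577, 26873 and 21361 CPM in the Ang/PE hearts and 28323 to 34172 CPM (median 31397) in the saline hearts, replicate 3 being the lowest. Of 20 genes 2 were called higher and 1 lower in the 9 hearts, beside 3.19% and 2.49% of all genes, with a median of -0.11. Tcap, the titin cap of the Z-disc, read 713, 531 and 661 CPM in the Ang/PE hearts and 751 to 1007 CPM (median 876) in the saline hearts. Nexn, an F-actin binding protein of the Z-disc, was higher at 282, 311 and 291 CPM in the Ang/PE hearts and 173 to 243 CPM (median 229) in the saline hearts. Smpx, a small muscle protein, was higher at 135, 135 and 202 CPM in the Ang/PE hearts and 103 to 124 CPM (median 118) in the saline hearts. Without a pump Nexn read 265 to 308 CPM and Smpx 152 to 165 CPM, both above the saline hearts. Tcap read 653 to 792 CPM in the same hearts, overlapping the saline hearts.

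Several cardiac ion channels were lower. Of 41 genes of calcium handling and channels, 15 were lower and 3 higher at an unadjusted p under 0.05, beside 9.58% and 9.47% of all genes. With groups apart 13 were lower and 3 higher, beside 7.16% and 6.39%, and in the 9 hearts 4 were called lower and 3 higher, beside 2.49% and 3.19%. Their median log2 fold change was -0.29, and -0.16 without replicate 3. The list holds Sln, an atrial inhibitor of the calcium pump, which followed the atrial RNA of the saline hearts at 0.116 to 145 CPM there and 0 to 0.0715 CPM under Ang/PE. How far other members lower with groups apart, such as Kcnj5, Kcnj3, Gja5 and Hcn4, followed that atrial RNA was not tested. Atp2a2, the sarcoplasmic calcium pump, overlapped, at 16214, 15684 and 13328 CPM in the Ang/PE hearts and 15298 to 19847 CPM (median 17623) in the saline hearts.

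Scn4a, a sodium channel, read 35.6, 34.9 and 23.2 CPM in the Ang/PE hearts and 52.99 to 80.7 CPM (median 75.7) in the saline hearts. The highest Ang/PE heart lay below the lowest saline heart (log2 -1.21, edgeR adjusted p = 0.0801 in the 25 hearts and 0.00346 in the 9). Saline replicate 6 read 69.7 CPM, the hearts without a pump read 47.2 and 32.6 CPM in the 2 with Xist and 64.3 and 39.6 CPM in the 2 without, and without replicate 3 the log2 difference was -1.02. Kcna2, a voltage-gated potassium channel, was nearly the same in the 3 Ang/PE hearts, at 2.56, 2.59 and 2.64 CPM in the Ang/PE hearts and 4.39 to 6.88 CPM (median 5.65) in the saline hearts. Kcnj2, the channel of the inward rectifier current, read 55.1, 48.99 and 33.2 CPM in the Ang/PE hearts and 66.5 to 92.5 CPM (median 72.9) in the saline hearts. Kcnj5, a subunit of the acetylcholine-activated channel, read 66.1, 62.6 and 49.1 CPM in the Ang/PE hearts and 81.2 to 117 CPM (median 94.5) in the saline hearts. All 4 were called lower in the 9 hearts.

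The 3 channel-list genes called higher were Kcna5, Asph and Kcne1. Kcna5, the channel of the ultrarapid potassium current and one of the listed atrial markers, was higher under Ang/PE at 44.6, 47.4 and 54.5 CPM in the Ang/PE hearts and 22.8 to 30.4 CPM (median 25.2) in the saline hearts. By contrast, 5 of the 9 tested atrial markers were lower with groups apart, beside 7.16% of all genes. Asph, whose transcripts include junctin of the calcium release unit, read 251, 283 and 305 CPM in the Ang/PE hearts and 216 to 249 CPM (median 227) in the saline hearts. Kcne1, a regulatory potassium channel subunit, read 6.92, 5.94 and 9.72 CPM in the Ang/PE hearts and 2.89 to 5.44 CPM (median 3.65) in the saline hearts.

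No difference in collagens was detected. Of 22 genes 0 were called in the 9 hearts, beside 3.19% higher and 2.49% lower of all genes. At an unadjusted p of 0.05 in the 25 by edgeR 0 passed, beside 9.47% and 9.58%, and the median was -0.01. Col1a1 read 137, 167 and 179 CPM in the Ang/PE hearts and 117 to 267 CPM (median 199) in the saline hearts, within the saline range, and its log2 difference of -0.29 had a 95% interval from -0.90 to 0.31. Col3a1 read 192, 309 and 299 CPM in the Ang/PE hearts and 181 to 439 CPM (median 284) in the saline hearts, with log2 -0.16 and an interval from -0.82 to 0.51. The 8 fibroblast markers summed to 2494 to 2829 CPM under Ang/PE and 1795 to 3827 CPM under saline.

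Matricellular and fibroblast-activation genes gave no call, and several were high in replicate 3 alone. Of 31 genes 0 were called in the 9 hearts with edgeR, 11 were higher and 0 lower at an unadjusted p under 0.05 in the 25, beside 9.47% and 9.58% of all genes, and the median was 0.53, or 0.28 without replicate 3. Postn, which activated fibroblasts secrete, was above the saline range in each Ang/PE heart, at 79.8, 79.4 and 159 CPM in the Ang/PE hearts and 24.6 to 69.2 CPM (median 35.7) in the saline hearts (log2 1.39, SE 0.56, edgeR adjusted p = 0.186). Mfap5, a microfibril protein, was likewise apart, at 29.9, 30.7 and 55.8 CPM in the Ang/PE hearts and 9.18 to 24.5 CPM (median 11.99) in the saline hearts. Ccn2, a matricellular target of TGF-beta and YAP, read 95.1, 120.5 and 737 CPM in the Ang/PE hearts and 69.2 to 112 CPM (median 88.003) in the saline hearts. Thbs1, a matricellular activator of TGF-beta, read 26.9, 25.997 and 409.6 CPM in the Ang/PE hearts and 12.96 to 35.6 CPM (median 22.6) in the saline hearts. In these last 2 genes replicates 1 and 2 were near or inside the saline range.

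Tnc and Fstl3 were highest in replicate 3 under Ang/PE and in replicate 6 under saline. Tnc, a matrix protein of injured tissue, read 3.22, 3.56 and 8.22 CPM in the Ang/PE hearts and 0.921 to 4.85 CPM (median 1.63) in the saline hearts, and Fstl3, an inhibitor of activin, 3.34, 4.33 and 20.4 CPM in the Ang/PE hearts and 2.85 to 6.71 CPM (median 3.31) in the saline hearts. Comp, a cartilage matrix protein, spread as widely within saline as between groups, at 17.5, 19.99 and 21.1 CPM in the Ang/PE hearts and 2.32 to 46.6 CPM (median 12.9) in the saline hearts.

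In matrix crosslinking and turnover, 3 of 27 genes were called higher and 1 lower in the 9 hearts, beside 3.19% and 2.49% of all genes. Timp3, a metalloproteinase inhibitor bound to matrix, read 363, 352 and 506 CPM in the Ang/PE hearts and 221 to 281 CPM (median 259) in the saline hearts (log2 0.68, adjusted p = 0.00783 in the 9 hearts with edgeR). Timp4, the heart-rich inhibitor of the same family, read 73.4, 47.2 and 87.4 CPM in the Ang/PE hearts and 22.98 to 40.2 CPM (median 27.996) in the saline hearts. Plod2, which hydroxylates collagen lysines, read 36.1, 37.2 and 54.95 CPM in the Ang/PE hearts and 28.5 to 33.2 CPM (median 31.97) in the saline hearts, and Mmp15, a membrane metalloproteinase, 135, 135 and 96.8 CPM in the Ang/PE hearts and 149 to 182 CPM (median 173) in the saline hearts. Timp3, Timp4 and Plod2 were above, and Mmp15 below, the saline hearts in each Ang/PE heart. Lox, a collagen crosslinker, read 7.098, 6.92 and 20.01 CPM in the Ang/PE hearts and 2.45 to 8.11 CPM (median 3.896) in the saline hearts. Tgm2, a transglutaminase, read 317, 278 and 391 CPM in the Ang/PE hearts and 247 to 279 CPM (median 259) in the saline hearts, and Timp1 overlapped at 2.15, 1.61 and 4.93 CPM in the Ang/PE hearts and 0.407 to 4.31 CPM (median 1.61) in the saline hearts.

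The TGF-beta pathway had 2 of 21 genes called higher and 1 lower in the 9 hearts, beside the same 3.19% and 2.49%. Skil, an inhibitor of SMAD signalling and itself a target of it, was higher in all 3 hearts, at 49.1, 63.2 and 60.4 CPM in the Ang/PE hearts and 30.9 to 42.5 CPM (median 36.3) in the saline hearts (edgeR adjusted p = 0.051 in the 25 hearts and 0.00543 in the 9). Tgfbr1, the type I receptor, read 33.5, 35.01 and 65.5 CPM in the Ang/PE hearts and 24.04 to 28.1 CPM (median 25.3) in the saline hearts. Ltbp1, which holds latent TGF-beta in the matrix, was lower at 107, 102 and 83.8 CPM in the Ang/PE hearts and 117 to 135 CPM (median 124) in the saline hearts. Tgfb2, a ligand, read 9.01, 11.6 and 26.2 CPM in the Ang/PE hearts and 9.405 to 17.2 CPM (median 11.7) in the saline hearts, above saline only in replicate 3.

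Lactate and pyruvate handling, the subject of the series, gave no call in the WT hearts: of 23 genes 0 were called in the 9 hearts. At an unadjusted p under 0.05 in edgeR's 25-heart fit 1 was higher and 2 lower, beside 9.47% and 9.58% of all genes. Slc16a1, the lactate transporter MCT1 that the MCT1-KO label names, read 217, 223 and 203 CPM in the Ang/PE hearts and 165 to 249 CPM (median 190.1) in the saline hearts. Its log2 difference was 0.11 with a 95% interval from -0.18 to 0.40. Ldha, which turns pyruvate to lactate, read 410.4, 380.2 and 379 CPM in the Ang/PE hearts and 321 to 428 CPM (median 380.4) in the saline hearts, with an interval from -0.17 to 0.27. Mpc1, of the mitochondrial pyruvate carrier, read 139, 136 and 157 CPM in the Ang/PE hearts and 90.3 to 155 CPM (median 127) in the saline hearts. Slc16a3, the lactate exporter MCT4, was rare at 2.39, 3.28 and 4.36 CPM in the Ang/PE hearts and 1.25 to 3.33 CPM (median 1.73) in the saline hearts. Pdp2, which activates pyruvate dehydrogenase, read 57.02, 39.9 and 21.2 CPM in the Ang/PE hearts and 46.2 to 74.5 CPM (median 60.1) in the saline hearts. Pdk4, which inhibits that enzyme, read 454, 376 and 1681 CPM in the Ang/PE hearts and 394 to 797 CPM (median 549) in the saline hearts, high in replicate 3 and below the saline median in the other 2.

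Some fatty acid genes were lower. Of 41 genes 5 were called lower and 0 higher in the 9 hearts, beside 2.49% and 3.19% of all genes (11 and 1 at an unadjusted p under 0.05 with edgeR in the 25, beside 9.58% and 9.47%). Groups were apart for 10 lower and 0 higher, beside 7.16% and 6.39%, and the median was -0.20, or -0.18 without replicate 3. Slc27a1, a fatty acid transport protein, read 181, 159 and 134 CPM in the Ang/PE hearts and 205 to 262 CPM (median 232) in the saline hearts. Cpt1a, the minor carnitine palmitoyltransferase 1 of heart, read 84.99, 74.1 and 70.2 CPM in the Ang/PE hearts and 95.2 to 109 CPM (median 101) in the saline hearts, while the main muscle form Cpt1b overlapped at 96.7, 92.7 and 80.5 CPM in the Ang/PE hearts and 88.7 to 117 CPM (median 102) in the saline hearts. Acot2, a mitochondrial acyl-CoA thioesterase, read 62.6, 69.3 and 68.2 CPM in the Ang/PE hearts and 76.4 to 115 CPM (median 106) in the saline hearts. Ucp3, a mitochondrial carrier induced by fatty acids, read 46.5, 43.5 and 33.7 CPM in the Ang/PE hearts and 74.6 to 126 CPM (median 78.6) in the saline hearts. Esrra, a nuclear receptor that drives oxidative genes, read 126, 119 and 97.05 CPM in the Ang/PE hearts and 131 to 190.0 CPM (median 144) in the saline hearts, and its coactivator Ppargc1a, above the saline range in replicates 1 and 2 alone, 211, 265 and 162 CPM in the Ang/PE hearts and 134 to 190.4 CPM (median 140.1) in the saline hearts.

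The other metabolic lists had 3 calls in the 9 hearts, all lower, where 2.49% of all genes were called lower. Of 31 genes of glucose uptake and glycolysis 1 was lower, Slc2a8, and of 23 of the TCA cycle 2 were lower, Me1 and Aco1. Of 6 of ketone metabolism 0 were called, or passed an unadjusted p of 0.05, by edgeR. In the glucose list 6 of 31 log2 fold changes were positive and the median was -0.12. Pfkp and Gfpt2 were among the positive ones and were not called. Pfkp, the platelet form of phosphofructokinase, was above saline in each Ang/PE heart, at 74.9, 72.05 and 108 CPM in the Ang/PE hearts and 45.6 to 70.1 CPM (median 54.8) in the saline hearts (adjusted p = 0.0676 in edgeR's 9-heart fit). Gfpt2, of the hexosamine pathway, was at 29.2, 35.9 and 68.5 CPM in the Ang/PE hearts and 18.5 to 28.8 CPM (median 21.9) in the saline hearts, again apart. Mitochondrially encoded RNA took 13.98 ± 1.29% of counts under Ang/PE (SD, n = 3) and 11.7 ± 1.90% under saline (SD, n = 6), a difference of 2.26 points (exact permutation test, two-sided, p = 0.119).

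Genes that glucocorticoids are known to induce were the list with the highest median, 0.79 over 18 genes, or 0.63 without replicate 3. In the 9 hearts 9 were called higher and 0 lower: Cdkn1a, Mt1, Fkbp5, Zbtb16, Lcn2, Klf9, Tsc22d3, Errfi1 and Sgk1, beside 3.19% and 2.49% of all genes. Each was apart from saline in all 3 Ang/PE hearts. In the 25 hearts 12 were higher and 2 lower at an unadjusted p under 0.05, beside 9.47% and 9.58%. Fkbp5, a chaperone of the glucocorticoid receptor, read 102, 84.98 and 208 CPM in the Ang/PE hearts and 16.7 to 27.98 CPM (median 22.8) in the saline hearts, a log2 difference of 2.53 (SE 0.58, edgeR adjusted p = 0.0596 in the 25 hearts and 0.00351 in the 9). Zbtb16, a zinc finger transcription factor, read 494, 319.9 and 481 CPM in the Ang/PE hearts and 99.2 to 166 CPM (median 110.0) in the saline hearts (log2 1.84, adjusted p = 0.00141 in the 9). With Xist as a covariate the log2 differences of Fkbp5 and Zbtb16 were 2.21 and 2.12 in the 9 hearts (edgeR adjusted p = 0.183 and 0.0748) and 1.87 and 1.32 in the 25 (adjusted p = 0.297 and 0.349). With the atrial and adipocyte scores as covariates these differences were 2.01 and 0.997 in the 25 hearts (edgeR adjusted p = 0.729 and 0.764).

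Hearts without a pump divided by Xist in both genes. Fkbp5 read 126 and 146 CPM in the 2 with Xist and 41.9 and 33.2 CPM in the 2 without among the hearts without a pump, and 27.98 CPM in the saline heart with Xist. Zbtb16 read 418 and 479 CPM in the 2 with Xist and 150.2 and 241 CPM in the 2 without among the hearts without a pump, and 99.7 CPM in the saline heart with Xist. Tsc22d3 (GILZ), a mediator of glucocorticoid action, read 174, 186 and 169 CPM in the Ang/PE hearts and 73.7 to 114 CPM (median 97.3) in the saline hearts, and without a pump 173 and 256 CPM in the 2 with Xist and 121 and 73.1 CPM in the 2 without. Klf9, a transcription factor that the receptor induces, read 240.3, 228 and 246 CPM in the Ang/PE hearts and 145 to 174 CPM (median 163) in the saline hearts. Sgk1, a kinase that regulates ion transport, read 99.7, 123 and 110.2 CPM in the Ang/PE hearts and 46.5 to 89.2 CPM (median 67.2) in the saline hearts. Errfi1, an inhibitor of the EGF receptor, read 48.5, 69.1 and 93.2 CPM in the Ang/PE hearts and 23.01 to 43.7 CPM (median 34.4) in the saline hearts. Per1, a clock gene that the same receptor induces, did not follow them, at 130.5, 133 and 99.5 CPM in the Ang/PE hearts and 90.8 to 144 CPM (median 123) in the saline hearts.

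The metallothioneins Mt1 and Mt2, which bind metals, were highest in replicate 3. Mt1 read 66.5, 62.8 and 149 CPM in the Ang/PE hearts and 38.6 to 46.1 CPM (median 41.2) in the saline hearts, all 3 above saline, and Mt2 10.6, 14.7 and 143 CPM in the Ang/PE hearts and 4.51 to 10.8 CPM (median 6.48) in the saline hearts, where replicate 1 was inside the saline range. Without a pump Mt1 read 52.2 to 78.8 CPM, above the saline hearts, and Mt2 9.52 to 31.4 CPM, overlapping them.

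Of 21 tested p53 target genes 5 were called higher and 0 lower in the 9 hearts, beside 3.19% and 2.49% of all genes: Rnf144b, Cdkn1a, Sesn1, Trp53inp1 and Fas. Cdkn1a stands in the glucocorticoid list as well. The list median was -0.09. At an unadjusted p under 0.05 in the 25 hearts 5 members were higher and 2 lower, beside 9.47% and 9.58% of all genes. Sesn1, a stress-induced regulator of mTORC1, read 166, 152 and 191 CPM in the Ang/PE hearts and 85.3 to 113 CPM (median 101) in the saline hearts (log2 0.75, edgeR adjusted p = 0.0653 in the 25 hearts and 0.00141 in the 9). Trp53inp1, a p53-induced nuclear protein, read 25.6, 28.3 and 29.1 CPM in the Ang/PE hearts and 15.5 to 20.2 CPM (median 17.1) in the saline hearts. Without a pump Sesn1 read 136 to 169 CPM and Trp53inp1 21.7 to 46.1 CPM, both above the saline hearts. Fas, the death receptor, read 18.3, 11.6 and 21.6 CPM in the Ang/PE hearts and 8.72 to 9.78 CPM (median 9.502) in the saline hearts. Mdm2, the ubiquitin ligase of p53 and one of its best-known targets, overlapped fully, at 44.1, 43.9 and 45.2 CPM in the Ang/PE hearts and 40.7 to 53.9 CPM (median 45.8) in the saline hearts, with an interval of the log2 difference from -0.25 to 0.15.

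Several heat shock genes were high in 1 Ang/PE heart. Hspa1b, an inducible HSP70, read 2.03, 2.31 and 304 CPM in the Ang/PE hearts and 1.38 to 4.71 CPM (median 1.93) in the saline hearts, and its neighbour Hspa1a 2.39, 2.096 and 349 CPM in the Ang/PE hearts and 1.32 to 7.62 CPM (median 1.77) in the saline hearts. Replicates 1 and 2 lay within the saline range, and replicate 3 was far above every other WT heart. Levels in the MCT1-KO hearts are not given here. The log2 differences of 5.51 and 5.40 became -0.04 and -0.30 without replicate 3. Hsp90aa1, the inducible HSP90, read 72.6, 114 and 287 CPM in the Ang/PE hearts and 64.2 to 83.1 CPM (median 75.2) in the saline hearts, and Hspa8, the constitutive HSP70, 965, 1202 and 2117 CPM in the Ang/PE hearts and 765 to 1140 CPM (median 909) in the saline hearts. Hspb1, a small heat shock protein, read 95.5, 129 and 454 CPM in the Ang/PE hearts and 97.2 to 149 CPM (median 110.1) in the saline hearts. Of 30 genes of heat shock and endoplasmic reticulum stress 0 were called higher and 1 lower in the 9 hearts. These counts stand beside 3.19% and 2.49% of all genes. At an unadjusted p under 0.05 with edgeR in the 25, 10 were higher and 1 lower, beside 9.47% and 9.58% of all genes. Replicate 3 was the highest of the 9 in 21, beside 23.4% of all genes. The list median was 0.30, and -0.04 without replicate 3.

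The windows before Hspa1a and Hspa1b are shown because both genes were far above all other WT hearts in replicate 3. Each holds 1 match to GAANNTTC (the same on both strands), a short form of the heat shock element, in capitals. Looser forms of the element were not searched. They are 250 bases before the RefSeq start on GRCm38.p6, 5′ to 3′ on the gene's strand.
Hspa1a (chr17:34972157-34972406, minus strand): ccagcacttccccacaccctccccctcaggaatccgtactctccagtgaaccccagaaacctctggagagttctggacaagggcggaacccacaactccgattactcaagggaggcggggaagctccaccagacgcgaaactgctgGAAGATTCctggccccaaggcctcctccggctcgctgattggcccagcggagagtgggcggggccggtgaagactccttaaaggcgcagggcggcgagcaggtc
Hspa1b (chr17:34959239-34959488, minus strand): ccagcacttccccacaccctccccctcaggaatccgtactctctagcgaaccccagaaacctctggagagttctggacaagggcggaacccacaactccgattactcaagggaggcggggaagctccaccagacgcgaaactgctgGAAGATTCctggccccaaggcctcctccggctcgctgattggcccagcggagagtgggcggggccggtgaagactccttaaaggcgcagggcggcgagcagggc
In both the match begins 104 bases before the start, and the windows differ at 3 of 250 positions. The genes are near-identical copies, so the split of reads between them is uncertain. GAANNTTC is in 6.69% of all windows and in those of 7 of the 24 listed heat shock and stress genes with a window (Asns, Dnaja1, Hspa1a, Hspa1b, Hspb1, Hspd1 and Hspe1). Of these, Hspd1, a mitochondrial chaperonin, read 235, 283 and 261 CPM in the Ang/PE hearts and 241 to 299 CPM (median 272) in the saline hearts and did not share the high level.

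Immediate early genes split the Ang/PE hearts. Atf3, a stress-induced transcription factor, read 3.996, 6.64 and 342 CPM in the Ang/PE hearts and 4.08 to 12.8 CPM (median 6.59) in the saline hearts. Fos read 1.73, 2.096 and 34.9 CPM in the Ang/PE hearts and 3.28 to 8.12 CPM (median 5.14) in the saline hearts, Egr1 8.05, 10.6 and 52.7 CPM in the Ang/PE hearts and 16.5 to 42.7 CPM (median 24.5) in the saline hearts and Junb 9.36, 11.6 and 33.02 CPM in the Ang/PE hearts and 14.9 to 24.6 CPM (median 17.9) in the saline hearts. In Fos, Egr1 and Junb replicates 1 and 2 were below all saline hearts and replicate 3 above all of them. Nr4a1, an early nuclear receptor, was below the saline hearts in all 3, at 10.3, 25.5 and 39.2 CPM in the Ang/PE hearts and 40.9 to 73.7 CPM (median 58.1) in the saline hearts (adjusted p = 0.129 in edgeR's 9-heart fit). Myc, a growth transcription factor, read 4.83, 5.45 and 36.2 CPM in the Ang/PE hearts and 2.44 to 6.81 CPM (median 4.55) in the saline hearts. Maff, a small MAF factor, was the 1 of 23 called in the 9 hearts, where 3.19% of all genes were called higher. It read 13.6, 21.5 and 36.2 CPM in the Ang/PE hearts and 5.99 to 12.7 CPM (median 7.003) in the saline hearts. The list median was 0.04 with replicate 3 and -0.30 without it.

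**Figure D4:**
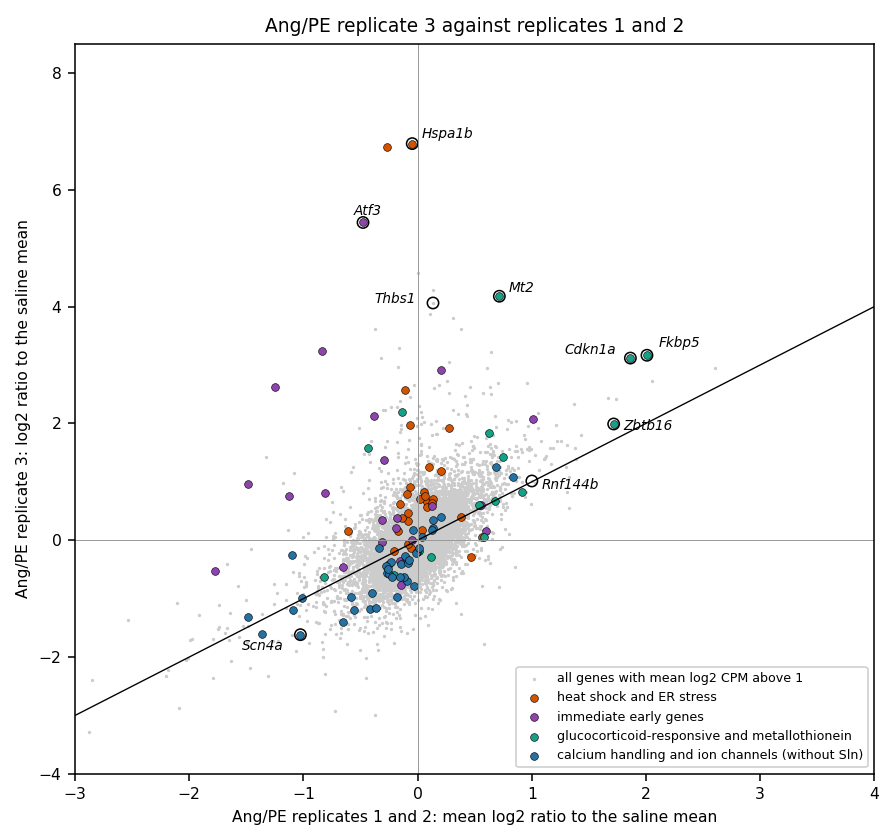
Log2 ratio to the saline mean of CPM plus 0.5 for Ang/PE replicate 3 (vertical axis) against the mean of replicates 1 and 2 (horizontal axis) for genes with mean log2 CPM above 1, within the range drawn; the line marks equal ratios and circles mark named genes. Hspa1b, Atf3, Thbs1 and Mt2 lie far above the line, and Rnf144b, Zbtb16 and Scn4a lie near it.

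Of the further lists, some gave calls in both directions in the 9 hearts, some in 1 direction and some none. Of all genes, 3.19% were called higher and 2.49% lower in these hearts. In the clock list 0 of 27 were called higher and 3 lower by edgeR: Tspan4, Rbm3 and Cirbp, each with groups apart. At an unadjusted p under 0.05 in the 25 hearts 7 were higher and 4 lower, beside 9.47% and 9.58% of all genes. Nfil3, Arntl and Clock had positive log2 fold changes but were not called (edgeR adjusted p = 0.142, 0.108 and 0.0504 in the 9 hearts). Nfil3, a clock output repressor, read 9.36, 8.46 and 60.3 CPM in the Ang/PE hearts and 4.21 to 9.66 CPM (median 7.98) in the saline hearts, high in replicate 3, Arntl (Bmal1), a core activator, 9.36, 18.03 and 22.3 CPM in the Ang/PE hearts and 5.17 to 11.6 CPM (median 9.49) in the saline hearts, and Clock, its partner, 84.8, 89.7 and 102 CPM in the Ang/PE hearts and 70.8 to 83.7 CPM (median 76.4) in the saline hearts. Of 31 polycomb genes 1 was called higher, Rnf2, and 1 lower, Jarid2, an accessory factor of complex 2, at 42.8, 50.5 and 33.6 CPM in the Ang/PE hearts and 51.4 to 64.8 CPM (median 57.4) in the saline hearts. Of 14 RING-between-RING ligases 1 was higher, Rnf144b, and 1 lower, Cul9, a cytoplasmic partner of p53, at 63.3, 59.4 and 47.95 CPM in the Ang/PE hearts and 70.1 to 83.7 CPM (median 76.8) in the saline hearts.

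Among 23 ubiquitin ligases of atrophy and autophagy genes 2 were called higher and 2 lower, beside 3.19% and 2.49% of all genes. The higher ones were Foxo3 and Bnip3, and the lower ones Nedd4l and Fbxo21. Atg7, the member of smallest p in the 25 hearts, was lower with groups apart and was not called. Foxo3, a transcription factor that drives atrophy genes, read 278, 219 and 199.7 CPM in the Ang/PE hearts and 162 to 191 CPM (median 171) in the saline hearts. Bnip3, a mitophagy receptor, read 122, 119.6 and 164 CPM in the Ang/PE hearts and 82.5 to 116 CPM (median 89.5) in the saline hearts. Without a pump Bnip3 read 136 to 183 CPM, above the saline hearts, and Foxo3 183 to 225 CPM, overlapping them. Of 23 interferon-stimulated genes 1 was called higher, Oas2, an antiviral enzyme, at 19.7, 15.7 and 27.01 CPM in the Ang/PE hearts and 9.03 to 16.4 CPM (median 9.64) in the saline hearts. Of 24 genes of oxidative stress 0 were called by edgeR. At an unadjusted p under 0.05 in the 25 hearts 3 were higher and 1 lower, beside 9.47% and 9.58% of all genes. Of 28 cell cycle genes 0 were called higher and 1 lower. At an unadjusted p under 0.05 in the 25 hearts 0 of them were higher and 3 lower, beside 9.47% and 9.58% of all genes.

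**Figure D5:**
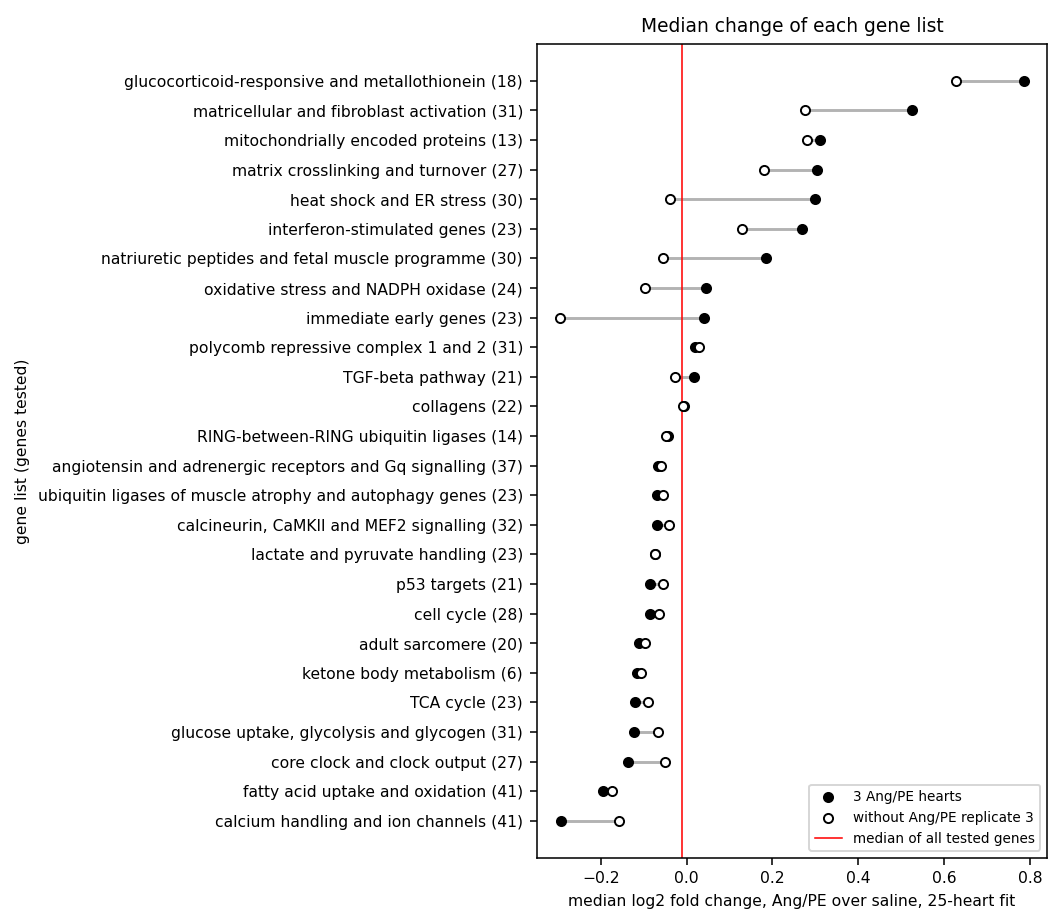
Median log2 fold change (Ang/PE over saline, 25-heart fit) of each gene list other than the cell type and sex-linked markers, with all 3 Ang/PE hearts (filled) and without replicate 3 (open); the number of genes tested stands in brackets and the red line is the median of all tested genes. Among the lists drawn, the glucocorticoid-responsive list is highest in both, and the largest shifts on leaving out replicate 3 are those of the heat shock and immediate early lists.

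The fold changes moved with base composition. Across 13002 genes with a mean log2 CPM above 1 the log2 fold change and the GC content of the longest transcript had a Spearman correlation of -0.386 (genes are not independent replicates). Genes higher without overlap had a median GC of 45.7% and those lower 53.5%, beside 49.04% of all tested genes. With offsets for GC and length 31 genes were called in the 25 hearts.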

How the data were processed

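RNA of mouse hearts was sequenced in 25 libraries after removal of ribosomal RNA. The data deposited by the authors are whole-number counts of reads for each gene and library, not normalized. Per the submitters' processing notes, cutadapt 1.16, STAR 2.7.9a, featureCounts 1.6.3 and DESeq2 1.42.1 were used with GRCm39. The strand setting of the counting is not given in the sources used here, so reads of overlapping or antisense genes may be misassigned. A symbol was found for 51948 of the 56941 genes.

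Counts were tested with edgeR 4.0.16 in R 4.3.3: filterByExpr by group, TMM scaling, glmQLFit (robust) with 6 groups and 25 hearts, glmQLFTest for WT Ang/PE against WT saline, two-sided, Benjamini-Hochberg adjustment over 17682 genes and a threshold of 0.05. The steps were tested on simulated counts. Alternatives are given at the end; DESeq2 1.42.0 was one of them. CPM are counts per 1000000 counts of the TMM-scaled library. The total of counts per library sets the precision of rare genes. Intervals are at 95%.

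Named genes are a panel, the 12 genes of smallest p in each direction with a mean log2 CPM above 1 and no overlap of groups, and up to 4 members of smallest p per list. Further members of small sets, and Fos, Egr1, Junb, Nr4a1, Per1, Adra1a, Hspb1 and Hspd1, were chosen after their values were seen. Groups, rule, panel and lists were chosen with earlier results of these data known. Ang/PE and saline hearts share replicate numbers, but deviations of same-numbered hearts correlated at 0.0263, 0.036 and -0.0218, so the numbers were not used as pairs. One listed gene is not reported here. No 2 libraries of a group agreed within sampling noise.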

Additional observations from a re-analysis of the deposited data

Results flagged for a closer look

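In 106 tests of the 6 saline hearts for a heart far from the other 5, 10 were flagged, where chance would give about 5.3. Values are log2 of CPM plus 0.5. Saline replicate 6, the saline heart with Xist, was the outlying one in 5 genes. It was high in Prr29 (2.88, others 2.25 to 2.43), Fstl3 (2.85, others 1.74 to 1.98) and Tnc (2.42, others 0.51 to 1.21). It was low in Sema6a (5.02, others 5.43 to 5.66) and Akap5 (2.27, others 3.23 to 3.68).

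Saline replicate 3 was low in Rnf144b (4.83, others 4.96 to 5.01) and Plod2 (4.86, others 5.00 to 5.07). Saline replicate 1 was high in Ppargc1a (7.58, others 7.07 to 7.24) and Hspa1b (2.38, others 0.91 to 1.31). Saline replicate 5 was low in Scn4a (5.74, others 6.13 to 6.34).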

How the results depend on the processing

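The count of called genes depended on the fit. Beside 3 with TMM and all hearts it was 27 with RLE scaling (23 higher, 4 lower), 649 with DESeq2 (366 and 283), 10 without a low-count filter, 945 with the 9 compared hearts alone, 621 with the 13 WT hearts, 37 without robust fitting, 26 without mitochondrially encoded genes and 31 with GC and length offsets. It was 0 with Xist, with the atrial and adipocyte scores, or without the 4 saline hearts with Myl7 above 10 CPM (2339, 1203 and 1660 at an unadjusted p under 0.05, edgeR), and 67 with Xist in the 9 hearts (30 higher, 37 lower). The last 2 settings and leaving hearts out of the 9 were chosen after seeing the data. With the replicate block it was 2. Leaving out 1 heart of the 25 gave 1 to 131: 131 without Ang/PE replicate 1, 24 without replicate 2, 1 without replicate 3, 2 without saline replicate 1 and 1 without each other saline heart. Leaving out 1 of the 9 gave 265 (without Ang/PE replicate 3) to 1221 (without saline replicate 1), and 403, 462 and 444 without saline replicates 2, 3 and 4. Rnf144b passed in 28 of 31 alternatives, with log2 fold changes from 0.87 to 1.12. The library total differed by -3.61 to -2.41 (units of 1000000 counts) with 1 heart left out. The mitochondrial share differed by 1.68 to 2.95 points, and without saline replicate 1 by 2.87 (exact permutation p = 0.0179).

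Some log2 fold changes that missed the threshold reversed. With the atrial and adipocyte scores these were Nppa (2.43), Acta1 (0.74), Rgs2 (0.43), Col3a1 (0.30), Col1a1 (0.23), Slc16a1 (-0.0468) and Mpc1 (-0.14). Without the 4 saline hearts they were Nppa (1.46), Rgs2 (0.29), Col3a1 (0.20), Col1a1 (0.11), Acta1 (0.10) and Slc16a1 (-0.0591). With Xist they were Rgs2 (0.0021) and Ldha (-0.0019), and in the 9 hearts Timp1 (-0.65), Tgfb2 (-0.20), Slc16a3 (-0.0398) and Tnc (-0.0281). With the replicate block they were Ldha (-0.0597) and Col3a1 (0.11), and with GC offsets Acta1 (0.0468). With 1 heart left out, values spanned 0 for Acta1 (-0.28 to 0.24), Ankrd1 (-0.56 to 0.61), Col3a1 (-0.28 to 0.0326), Timp1 (-0.0034 to 1.054), Tgfb2 (-0.32 to 0.55), Rgs2 (-0.12 to 0.061), Pdk4 (-0.42 to 0.93), Atf3 (-0.47 to 4.56), Hspa1a (-0.30 to 6.00), Hspa1b (-0.0436 to 6.09) and Mdm2 (-0.0874 to 0.0051). The cause of these changes was not tested.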
